A study of Mus musculus with 12 samples.

Results

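The clustered histone genes encode the linker histone H1 and the core histones H2A, H2B, H3 and H4, and most lie next to each other in a few stretches of the mouse genome. They were chosen by symbol: every gene of the count tables whose GENCODE M21 symbol begins with Hist1h, Hist2h, Hist3h or Hist4, with at least 10 counts summed over the 12 libraries. Of 47643 genes, 68 carry such a symbol, and 55 of these reached 10 counts. Of the other 13 genes, 6 had no count in any library. The sum of counts chose the members, so the fact that they were detected is no result.

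RNA was sequenced from C3H/10T1/2, a line of mouse embryonic mesenchymal cells with the shape of fibroblasts, that had been transfected with plasmid DNA. Groups of 3 libraries each received pH_BMP2ADV20a, pH_BMP2ADV148b or pH_BMP2ADV590, which are hybrid vectors of BMP2 and a microRNA by the series title, or pH_BMP2ADV, the BMP2 plasmid that served as their reference. TurboFect was used at 0.5 µg of plasmid per cm2, the medium was exchanged after 4 h, and RNA was collected after 3 days. The labels give the cells as embryonic and, under disease, as sarcoma. All 4 groups were transfected and none was left untransfected, so the comparisons say what a hybrid vector added or changed relative to pH_BMP2ADV. Transfection was transient, so that cells in a culture may differ in how much plasmid they took up. No label states whether replicate libraries were grown apart, and p-values then measure only the spread between these libraries. In RNA from whole cultures, fewer cells that make a transcript and less transcript per cell cannot be told apart.

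Most histone genes are transcribed during S phase, when new DNA has to be packed into nucleosomes, and their mRNA is not polyadenylated. It ends just behind a stem-loop that is bound by SLBP, and the stem-loop takes the place of the poly(A) tail in processing, translation and decay. Some clustered genes can also give a longer, polyadenylated transcript, mostly in cells that have left the cycle or differentiate. Linker histone H1 sits on the DNA between nucleosomes and compacts chromatin, while H2A, H2B, H3 and H4 form the nucleosome core. Sequencing used the QuantSeq 3' mRNA FWD kit, whose first primer binds poly(A). What share of these genes' transcripts carried a tail was not measured.

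The stem-loop was found behind the stop codon of 37 of the 55 members in the GRCm38 sequence, and the commonest form, of 16 bases, occurred in 19 of them. The stem-loops below are those of members with many counts or of members that the comparisons turn on. Capitals mark the stem of 6 base pairs with its loop of 4 bases, and 5 flanking bases on each side are in lower case.

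Hist1h1c: caaaaGGCTCTTTTCAGAGCCaccac
Hist1h1e: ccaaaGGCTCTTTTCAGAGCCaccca
Hist3h2a: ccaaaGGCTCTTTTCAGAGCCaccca
Hist2h3c2: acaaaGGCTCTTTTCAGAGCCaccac
Hist1h3c: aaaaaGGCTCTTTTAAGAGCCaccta
Hist1h4i: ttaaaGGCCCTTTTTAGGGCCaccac

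The capitals lie at chr13:23739512-23739527 on the + strand for Hist1h1c, chr13:23621782-23621797 on the − strand for Hist1h1e, chr11:58955172-58955187 on the + strand for Hist3h2a, chr3:96238485-96238500 on the − strand for Hist2h3c2, chr13:23745047-23745062 on the − strand for Hist1h3c and chr13:22040966-22040981 on the − strand for Hist1h4i. Hist1h1c, Hist1h1e, Hist3h2a and Hist2h3c2 share the same 16 bases, and Hist1h3c and Hist1h4i have other forms. For Hist1h2bc, an H2B gene with as many counts as Hist1h1c, the search found no stem-loop in its annotated coding transcript, which is spliced from 2 exons.

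The members took 0.0327% to 0.0404% of the gene counts of a library. In all they had 48342 counts, at gene totals of 9236431 to 14727288 per library. Their counts were very uneven. Hist1h1c, a linker histone gene, had 14885 counts, Hist1h2bc had 14834, and Hist3h2a, an H2A gene, had 6306. These 3 genes held 74.5% of all member counts. With Hist1h1e, a linker histone gene with 3255 counts, and Hist1h4i, an H4 gene with 1543, the share came to 84.4%. The next counts were those of Hist1h3c (H3) with 698 counts, Hist2h3c2 (H3) with 697 and Hist1h2be (H2B) with 591. The median member had 102 counts over all libraries, and 37 members were above 0 in every library. Just inside the minimum stood Hist1h2bn with 19 counts and Hist2h2ab with 13. Just outside stood Hist1h2ba, a testis H2B, with 5 counts, all in 1 library. Next came Hist1h1t, a testis linker histone, and, of H2A, Hist1h2aj, Hist1h2ao, Hist1h2ap and Hist2h2aa2, each with 3. Each transcript is read at its 3' end, so counts were not divided by length, and they rank reads rather than amounts of mRNA.

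**Figure D1:**
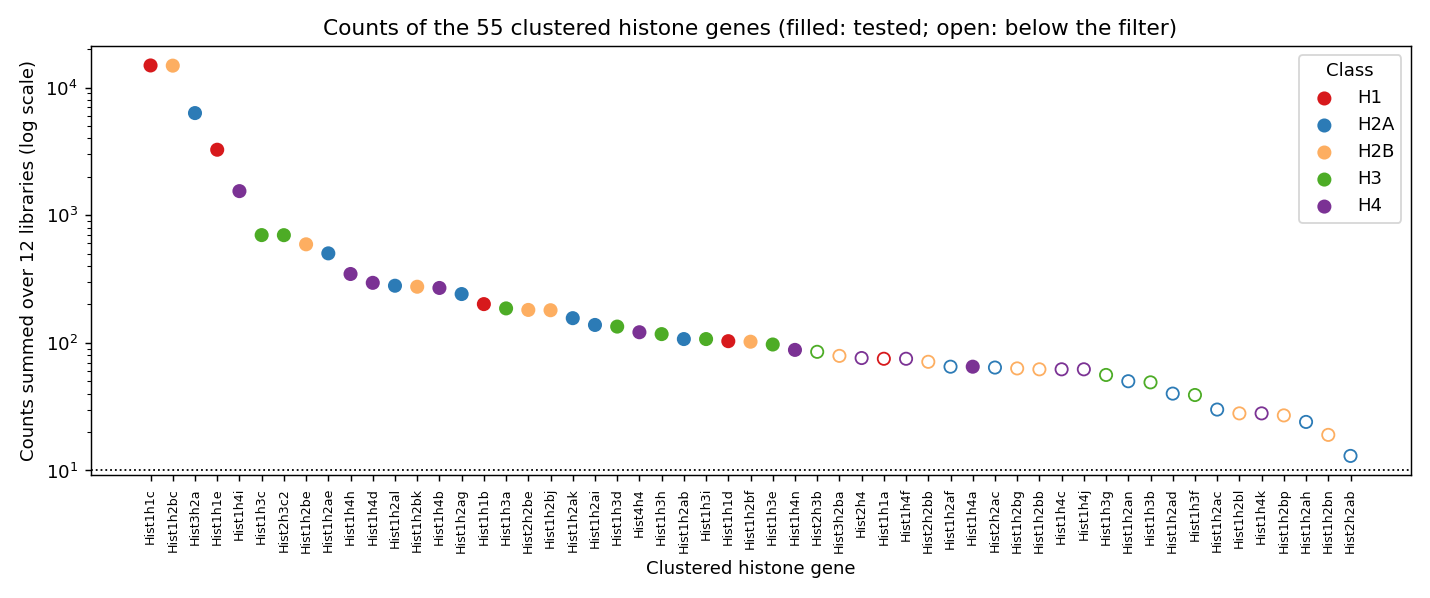
Counts summed over the 12 libraries (log scale) for each of the 55 clustered histone genes, coloured by histone class. Filled circles are the 31 genes that were tested and open circles the 24 below the filter on low counts; 5 genes lie above 1000 counts and the dotted line marks the minimum of 10.

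Of the summed counts, H1 genes took 38.3% (5 members), H2B genes 34.2% (13 members), H2A genes 16.6% (14 members), H4 genes 6.27% (12 members) and H3 genes 4.69% (11 members). One gene dominated 3 of these classes. Hist1h1c had 80.4% of the H1 counts, Hist1h2bc 89.8% of the H2B counts and Hist3h2a 78.7% of the H2A counts. H4 was led by Hist1h4i with 50.9% and H3 by Hist1h3c with 30.8%. By place, 45 members lie on chromosome 13 and held 84.1% of the counts, 7 lie on chromosome 3 and 1 on chromosome 6. The 2 members on chromosome 11, of which Hist3h2a is one, held 13.2%. Hist1h2al, with 280 counts, is annotated as a processed pseudogene and was tested among the H2A genes. It lies apart from the other members of chromosome 13, at chr13:51202727-51203065.

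The genes with many counts had long annotated 3' ends. Of the 54 members with a coding transcript in GENCODE M21, 16 have a transcript that runs at least 200 bases past the stem-loop. They include 4 of the 5 members with at least 1000 counts and 12 of the 49 others. The Hist1h1c transcript goes on for 840 bases past the stem-loop, that of Hist1h1e for 1153, that of Hist3h2a for 1643 and that of Hist1h4i for 330. A polyadenylation signal, either the letters AATAAA or else the letters ATTAAA, stands anywhere behind the stop codon in 4 of the 5 and 13 of the 49. Hist1h1e is the one of the 5 without a signal. A signal within 40 bases of the annotated end was found in 3 of the 5 and 10 of the 49. That of Hist1h2bc lies 441 bases before the end. The median transcript length was 1560 bases for the 5 and 530 for the 49. A long 3' end did not always go with many counts: the Hist1h1d transcript runs 4884 bases past the stem-loop and Hist1h1d had 103 counts. These features are from the annotation, and how far the sequenced transcripts reached was not measured.

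**Figure D2:**
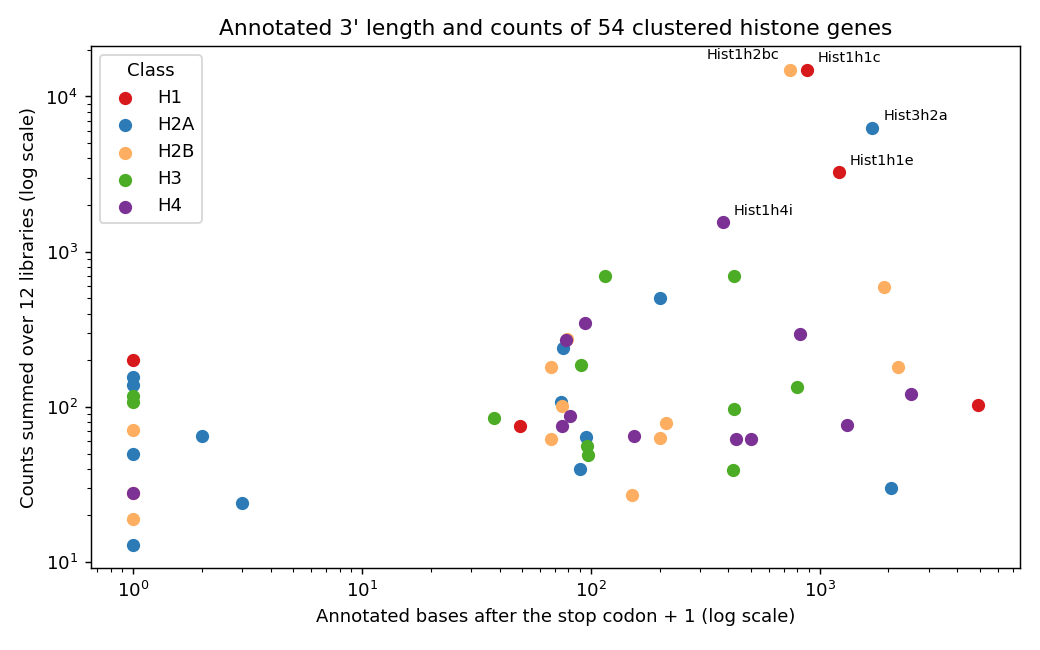
Counts summed over the 12 libraries against annotated bases behind the stop codon plus 1, both on log scales, for the 54 clustered histone genes with a coding transcript, coloured by class. The 5 genes above 1000 counts carry their names; all of them have more than 200 annotated bases, and many genes with as long an end have fewer counts.

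Near-identical copies limit what the counts can say of single members. The deposited files set records with more than 1 alignment apart from the genes, and these were 41.5% to 44.5% of the records of a library. Of the last 400 bases of the longest coding transcript, at least 50% of 50-base windows were found in no other annotated transcript for 24 of 54 members. For Hist1h1c, Hist3h2a and Hist1h4i the share was 100% and for Hist1h2bc 97.7%. For Hist1h1e (chr13:23620629-23622558, − strand, ENSMUSG00000051627) it was 0%, and its 3' end overlaps Hist1h2be (chr13:23583670-23621124) and the gene model Gm11398 on the same strand. Gm11398 had 0 counts in every library. Reads in this overlap can be given to either gene or to neither, and how the authors set the counting for such reads is unknown here. The last 400 bases of Hist1h1e lie wholly within the span of Hist1h2be. The 0% can therefore come from this overlap and need not mean a copy elsewhere. The level of Hist1h1e, and each comparison of it below, is uncertain over the whole of this 3' end. Hist3h2a overlaps the genes Trim17 and Gm44313, 1 on each strand. Windows were compared between transcripts as annotated, so overlap with a gene on the other strand does not lower the shares given here.

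The libraries were looked at before the members were compared. Markers of fibroblasts and mesenchymal cells were all detected, Vim at 7538 CPM (counts scaled to a common library total) and Col1a1 at 4777 CPM. Adgre1 of leukocytes, Cdh5 of endothelium, Krt8 of epithelium, Myod1 and Ckm of muscle and Sox10 of neural cells were at 0 in every library. Other genes of the same lists were read in every library, among them Tubb3 of neurons at a mean of 15.6 CPM, Acta1 of muscle at 12.4 CPM, Tek of endothelium at 6.80 CPM, Cdh1 of epithelium at 2.25 CPM, and Cd68 and Lyz2 of leukocytes at 1.28 and 0.924 CPM. Mir148b had 211, 215 and 204 counts in the pH_BMP2ADV148b libraries and 0 in every library of the other groups, where 0 allows up to 3 counts. Bmp2 was at 2.99 to 4.197 CPM in pH_BMP2ADV20a, 3.38 to 8.27 CPM in pH_BMP2ADV148b, 4.52 to 5.82 CPM in pH_BMP2ADV590 and 0.733 to 1.77 CPM in pH_BMP2ADV, and whether transcripts of the plasmids can be counted under this gene is unknown here. The first principal component, 18.0% of the variance, placed the pH_BMP2ADV590 libraries at 21.8 to 30.2 and those of pH_BMP2ADV at -25.3 to -7.66. Along the second, pH_BMP2ADV590 replicate 2 lay at -23.4 and the other 2 libraries of its group at 22.6 and 9.63, so counts of calls and medians for pH_BMP2ADV590 against pH_BMP2ADV are also given without that library. All levels below are CPM after scaling by trimmed mean of M-values (TMM).

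Summed over all 55 members, the level was 369 ± 10.0 CPM in pH_BMP2ADV20a, 330 ± 9.67 CPM in pH_BMP2ADV148b, 343 ± 6.11 CPM in pH_BMP2ADV590 and 370 ± 19.4 CPM in pH_BMP2ADV (SD, n = 3 each). The 3 libraries of pH_BMP2ADV148b, at 323 to 341 CPM, lay below all of pH_BMP2ADV, at 357 to 392 CPM, as did those of pH_BMP2ADV590, at 337 to 348 CPM. The sum is mostly that of the 3 leading genes and carries no test. Summed over the 52 others, the level was 82.2 to 108 CPM in pH_BMP2ADV20a and 84.4 to 102 CPM in pH_BMP2ADV148b. It was 65.0, 79.7 and 70.1 CPM in pH_BMP2ADV590, against 100.2, 98.2 and 109.6 CPM in pH_BMP2ADV. Here the pH_BMP2ADV590 libraries were below every library of the other 3 groups. Hist1h1e and Hist1h4i are among the 52, and without the 5 members above 1000 counts the sums were 48.3 to 61.3 CPM in pH_BMP2ADV20a, 57.0 to 63.0 CPM in pH_BMP2ADV148b, 43.3 to 52.0 CPM in pH_BMP2ADV590 and 53.9 to 62.5 CPM in pH_BMP2ADV. In these sums the pH_BMP2ADV590 libraries overlapped those of pH_BMP2ADV20a.

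Among the linker histone genes, 1 was called. Hist1h1e, which encodes the H1 subtype that RefSeq calls H1f4, was lower in pH_BMP2ADV590. Its level was 10.3, 16.6 and 9.91 CPM in the pH_BMP2ADV590 libraries, against 27.1, 32.3 and 38.3 CPM in the pH_BMP2ADV libraries. Every pH_BMP2ADV590 library was below every pH_BMP2ADV library. The counts behind these levels were 146, 185 and 99 in pH_BMP2ADV590 and 366, 348 and 366 in pH_BMP2ADV. In edgeR's quasi-likelihood test Hist1h1e was 2.65-fold lower (log2 fold change -1.40, SE 0.212, adjusted p = 0.0001345, lower in 3 of 3 libraries). Without pH_BMP2ADV590 replicate 2 the log2 fold change was -1.68 (adjusted p = 8.847e-06).

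Hist1h1e was the one clustered histone gene called in this comparison, where 8.26% of the 13229 tested genes were called. That is 3.23% of the 31 tested members, a share below that of all genes. Of all genes tested 3.89% were called lower. Marker genes also differed between these libraries. Vim, 1 of 10 tested fibroblast or mesenchymal markers, was called higher in pH_BMP2ADV590 (log2 fold change 0.29, SE 0.070, adjusted p = 0.009877). Acta1, the 1 tested gene of the 4 skeletal muscle markers, was called lower (-0.53, SE 0.165, adjusted p = 0.04601), but not without pH_BMP2ADV590 replicate 2, where Vim and Col3a1 were called. Summed, the 4 endothelial markers were at 5.22 to 6.36 CPM in pH_BMP2ADV590 and 7.64 to 11.2 CPM in pH_BMP2ADV. The 4 muscle markers were at 9.53 to 10.7 CPM in pH_BMP2ADV590 and 12.9 to 16.5 CPM in pH_BMP2ADV, and the 4 neural markers at 16.1 to 22.3 CPM in pH_BMP2ADV590 and 8.90 to 15.2 CPM in pH_BMP2ADV. The sums of epithelial and of fibroblast markers overlapped. The part of these in the histone values was not tested.

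The level of Hist1h1e was also compared with the other hybrid vectors. It was 35.0, 23.9 and 27.5 CPM in pH_BMP2ADV20a and 26.7, 24.6 and 14.5 CPM in pH_BMP2ADV148b. Against pH_BMP2ADV20a, pH_BMP2ADV590 was lower by a log2 fold change of -1.24 (SE 0.212, adjusted p = 0.002923), with no overlap of libraries; it was the one member called, where 2.17% of all genes were. Against pH_BMP2ADV148b the log2 fold change was -0.84 (SE 0.217, adjusted p = 0.02449), where 4.43% of all genes were called, and 1 pH_BMP2ADV148b library at 14.5 CPM lay below the highest pH_BMP2ADV590 library at 16.6 CPM. That call was lost under 6 of 20 alternatives, among them without pH_BMP2ADV148b replicate 1 (-0.68, adjusted p = 0.1887) or replicate 2 (-0.76, adjusted p = 0.1167) and without pH_BMP2ADV590 replicate 1 (-0.73, adjusted p = 0.08432) or replicate 3 (-0.72, adjusted p = 0.1201), while the calls against pH_BMP2ADV and pH_BMP2ADV20a held in all 20. Tested for any difference among the 4 groups, Hist1h1e was again the one member called (adjusted p = 0.0005346), where 6.25% of all genes were called.

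**Figure D3:**
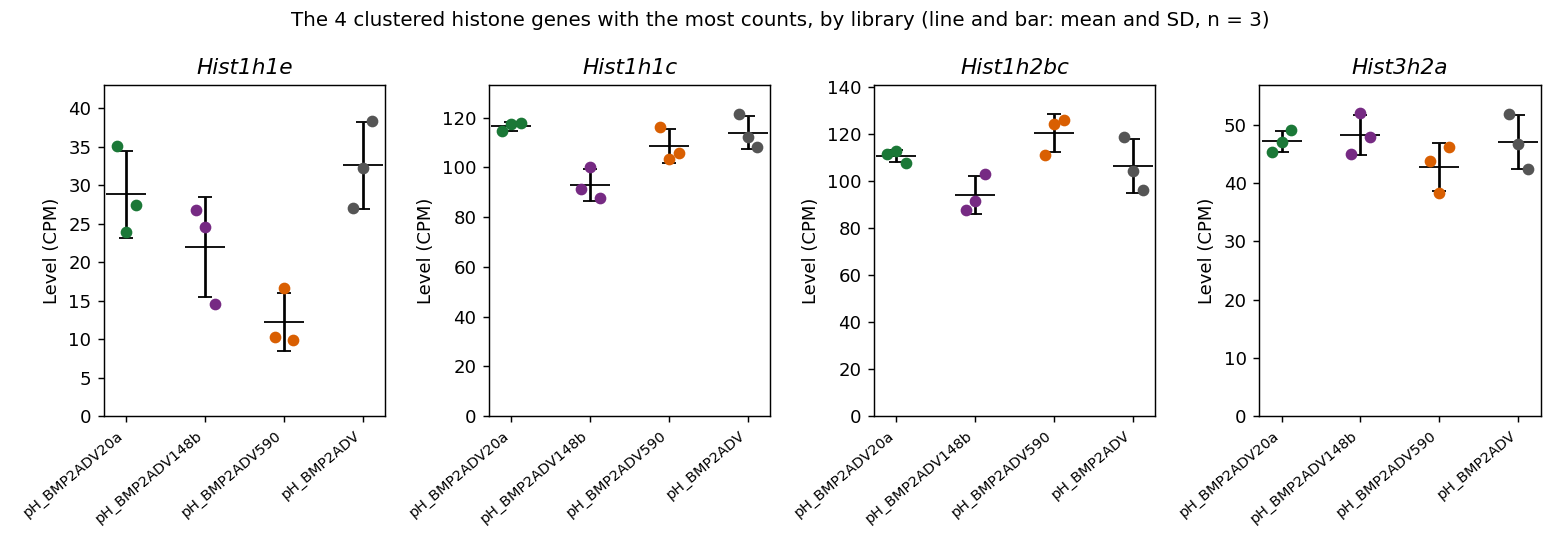
Levels in CPM, by library, of the 4 clustered histone genes with the most counts, in pH_BMP2ADV20a, pH_BMP2ADV148b, pH_BMP2ADV590 and pH_BMP2ADV; points are libraries, lines and bars the mean and SD of 3 libraries, and axes start at 0. For Hist1h1e the pH_BMP2ADV590 libraries, at 9.91 to 16.6 CPM, lie below the pH_BMP2ADV libraries, at 27.1 to 38.3 CPM; for Hist3h2a, at 38.3 to 46.3 CPM in pH_BMP2ADV590 and 42.5 to 51.8 CPM in pH_BMP2ADV, the groups overlap.

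The other linker genes were not called. Hist1h1c was at 116, 103 and 106 CPM in pH_BMP2ADV590 and at 122, 112 and 108 CPM in pH_BMP2ADV, with a log2 fold change of -0.07 (SE 0.084, adjusted p = 0.7022). The 95% interval of that change was -0.24 to 0.10, and that of Hist1h1e was -1.84 to -0.97. The difference between the 2 genes was not tested. In pH_BMP2ADV148b Hist1h1c was at 91.3, 100.2 and 87.7 CPM, below every pH_BMP2ADV library, with a log2 fold change of -0.29 (SE 0.085, unadjusted p = 0.002039, adjusted p = 0.2037). Hist1h1e in pH_BMP2ADV148b gave -0.56 (SE 0.205, adjusted p = 0.4017) against pH_BMP2ADV. Hist1h1b, Hist1h1d and Hist1h1a are H1 genes with under 1000 counts; the first 2 were tested and gave log2 fold changes of -0.25 and -0.70 in pH_BMP2ADV590 against pH_BMP2ADV, with SE of 0.558 and 0.622, and Hist1h1a was below the filter. As a share of the clustered H1 counts, Hist1h1e was 19.4 ± 3.12% in pH_BMP2ADV20a, 18.3 ± 4.15% in pH_BMP2ADV148b and 9.99 ± 3.14% in pH_BMP2ADV590, against 21.8 ± 3.99% in pH_BMP2ADV (SD, n = 3 each).

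The promoters of Hist1h1c and Hist1h1e are shown because one was called and the other was not although both are H1 genes with many counts. They were read from RefSeq (GRCm38.p6), 120 bases before the start of the gene at chr13:23738687-23738806 on the + strand for Hist1h1c and chr13:23622559-23622678 on the − strand for Hist1h1e. Capitals mark the H1 box AAACACA, the CAAT box CCAAT and the TATA box TATAAA, as found on either strand.

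Hist1h1c: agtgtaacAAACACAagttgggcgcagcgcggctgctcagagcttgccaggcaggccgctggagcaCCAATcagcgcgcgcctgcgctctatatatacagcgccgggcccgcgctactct
Hist1h1e: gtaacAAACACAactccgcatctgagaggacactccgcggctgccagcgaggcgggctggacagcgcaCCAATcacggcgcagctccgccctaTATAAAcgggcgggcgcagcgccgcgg

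Both have the letters AAACACA, and closer to the start they have CCAAT. The exact letters TATAAA are in the Hist1h1e sequence and not in this window of Hist1h1c. Hist1h1c has the similar letters TATATATA between CCAAT and the start, which the exact search did not mark. Whether the promoters bear on the call was not tested. All members matched a RefSeq gene, and the 48 with exactly 1 listed 300-base promoter were searched. Hist1h2bc was not among them. TATAAA stood in 64.6% of these promoters, against 13.6% of all 32851 promoters of the table, and CCAAT in 83.3%, against 37.4%. AAACACA, searched on both strands as the others were, stood in 4 of 5 H1 promoters, in 10.4% of member promoters and in 7.18% of all. Promoter windows of some neighbouring members overlap, such as those of Hist1h2ag and Hist1h2bj. With both strands searched, the same letters can then count for both genes. A match is a description of letters and shows no binding.

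Among H2B genes, Hist1h2bc was called in 1 comparison of hybrid vectors. Its level was 111, 124 and 126 CPM in pH_BMP2ADV590, against 87.8, 91.6 and 103 CPM in pH_BMP2ADV148b. No library of one group overlapped the other, and the log2 fold change was 0.35 (SE 0.092, adjusted p = 0.02546, edgeR). The call was lost under 6 of 20 alternatives, including the fit with the replicate number as a block (0.35, adjusted p = 0.0523) and leaving out pH_BMP2ADV148b replicate 1 (0.30, adjusted p = 0.1803) or replicate 2 (0.33, adjusted p = 0.1167) or pH_BMP2ADV590 replicate 2 (0.33, adjusted p = 0.05571) or replicate 3 (0.32, adjusted p = 0.1166). Without pH_BMP2ADV590 replicate 2 the members called were Hist1h1e and Hist1h3c, where 4.42% of all genes were called. With all libraries Hist1h2bc and Hist1h1e made 2 members called in this comparison, 6.45% of the 31 tested, where 4.43% of all genes were called. Against pH_BMP2ADV, at 119, 104 and 96.2 CPM, pH_BMP2ADV590 gave 0.18 (SE 0.091, adjusted p = 0.2766) and pH_BMP2ADV148b -0.18 (SE 0.092, adjusted p = 0.6243). As a share of all member counts H2B genes were 38.5 ± 2.05% in pH_BMP2ADV590 and 32.1 ± 1.60% in pH_BMP2ADV (SD, n = 3 each). The level of H2B genes overlapped, at 122 to 139 CPM in pH_BMP2ADV590 and 108 to 131 CPM in pH_BMP2ADV, while the sum over all members was lower in pH_BMP2ADV590. The other tested H2B genes were not called, and Hist1h2be, which overlaps Hist1h1e, was at 4.80, 5.38 and 4.40 CPM in pH_BMP2ADV590 and 2.44, 4.54 and 4.82 CPM in pH_BMP2ADV (log2 fold change 0.32, SE 0.34, adjusted p = 0.6567).

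Among H2A genes, none was called in a comparison. Hist3h2a gave a log2 fold change of -0.14 (SE 0.108, adjusted p = 0.5057) in pH_BMP2ADV590 against pH_BMP2ADV, at 43.8, 38.3 and 46.3 CPM in pH_BMP2ADV590 and 51.8, 46.7 and 42.5 CPM in pH_BMP2ADV. Hist1h2ab had 7, 1 and 1 counts in pH_BMP2ADV590 and 19, 17 and 6 in pH_BMP2ADV, or 0.494, 0.0896 and 0.1001 CPM in pH_BMP2ADV590 and 1.40, 1.58 and 0.628 CPM in pH_BMP2ADV, a log2 fold change of -2.25 (SE 0.849, adjusted p = 0.1012). Hist1h2ae was at 3.04, 3.23 and 2.90 CPM in pH_BMP2ADV590 and 5.10, 4.54 and 4.92 CPM in pH_BMP2ADV (-0.67, SE 0.324, adjusted p = 0.2352). In CPM the libraries of the groups did not overlap for either gene, and neither gene passed the test. Hist1h2ak, at 0.909, 0.599 and 0.562 CPM in pH_BMP2ADV20a and 1.26, 1.76 and 1.26 CPM in pH_BMP2ADV, was not called either (-1.02, SE 0.541, adjusted p = 0.5434), nor was Hist1h2ae in that comparison (-0.49, SE 0.319, adjusted p = 0.6386).

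H3 genes were not called. Hist2h3c2 had the smallest p among uncalled members of pH_BMP2ADV590 against pH_BMP2ADV: it was at 5.22, 7.08 and 8.31 CPM in pH_BMP2ADV590, above every pH_BMP2ADV library at 3.84, 3.61 and 3.46 CPM (log2 fold change 0.90, SE 0.32, adjusted p = 0.08445). In pH_BMP2ADV20a it was at 5.25, 6.73 and 4.12 CPM (0.56, SE 0.321, adjusted p = 0.5834). Hist1h3c was at 2.61, 5.74 and 1.90 CPM in pH_BMP2ADV590 and 5.03, 4.08 and 4.71 CPM in pH_BMP2ADV, a log2 fold change of -0.43 (SE 0.314, adjusted p = 0.4728), and without pH_BMP2ADV590 replicate 2, the high library, it was called. Hist1h3d was at 1.33, 1.48 and 2.21 CPM in pH_BMP2ADV148b, above 1.04, 0.742 and 0.209 CPM in pH_BMP2ADV (1.28, SE 0.668, adjusted p = 0.6242).

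H4 genes were not called. Hist1h4i, which had most H4 counts, was at 11.4, 11.1 and 9.41 CPM in pH_BMP2ADV590 and 10.6, 12.1 and 11.8 CPM in pH_BMP2ADV (log2 fold change -0.11, SE 0.178, adjusted p = 0.8063). Hist1h4b was at 1.91, 1.16 and 0.501 CPM in pH_BMP2ADV590 and 1.26, 4.17 and 3.77 CPM in pH_BMP2ADV (-1.30, SE 0.518, adjusted p = 0.1316), and the groups overlapped. Hist1h4h had the smallest p in pH_BMP2ADV20a against pH_BMP2ADV, at 1.82, 1.27 and 2.25 CPM in pH_BMP2ADV20a and 5.32, 1.85 and 2.51 CPM in pH_BMP2ADV (-0.89, SE 0.428, adjusted p = 0.502), with overlap.

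Over the 31 tested members, pH_BMP2ADV590 against pH_BMP2ADV had a median log2 fold change of -0.47, against 0.00 for all tested genes, and 23 members, 74.2%, were below 0, against 49.7% of all genes. By class the medians were -0.48 for 4 H1 genes, -0.51 for 7 H2A genes, -0.07 for 6 H2B genes, -0.54 for 7 H3 genes and -0.44 for 7 H4 genes. With every member tested at a minimum of 10 summed counts, 39 of 55 were below 0. The share of all genes below 0 was not counted in that fit. The median of the 55 was -0.44, against -0.0004 for all 18212 genes tested there. Hist1h1e was the one call in both fits, and 5.86% of all genes were called with the minimum of 10. In CPM, libraries of the groups did not overlap for 6 members: Hist1h1e, Hist1h1d, Hist1h2ab, Hist1h2ae and Hist1h4d were lower and Hist2h3c2 was higher, where 12.5% of all genes had no overlap in each direction. Without pH_BMP2ADV590 replicate 2 the median over the 31 members was -0.33 and 24 were below 0, against 50% of all genes. Hist1h1e and Hist1h3c were then called, where 6.89% of all genes were. Against pH_BMP2ADV148b the median of pH_BMP2ADV590 was -0.45, with 25 of 31 below 0 where 49.6% of all genes were, and against pH_BMP2ADV20a it was -0.17, with 21 below 0 where 48.6% were. These comparisons share the pH_BMP2ADV590 libraries. Members are few and share libraries, so the medians are descriptions. A single fold change had a median SE of 0.526, from 0.084 for Hist1h1c to 1.11 for Hist1h4a, in pH_BMP2ADV590 against pH_BMP2ADV. The biological coefficient of variation of a member was 0.321 at the median and 0.121 for all tested genes. At this depth a moderate change of a weakly counted member could be missed, and how small a change could be called was not measured for such members.

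**Figure D4:**
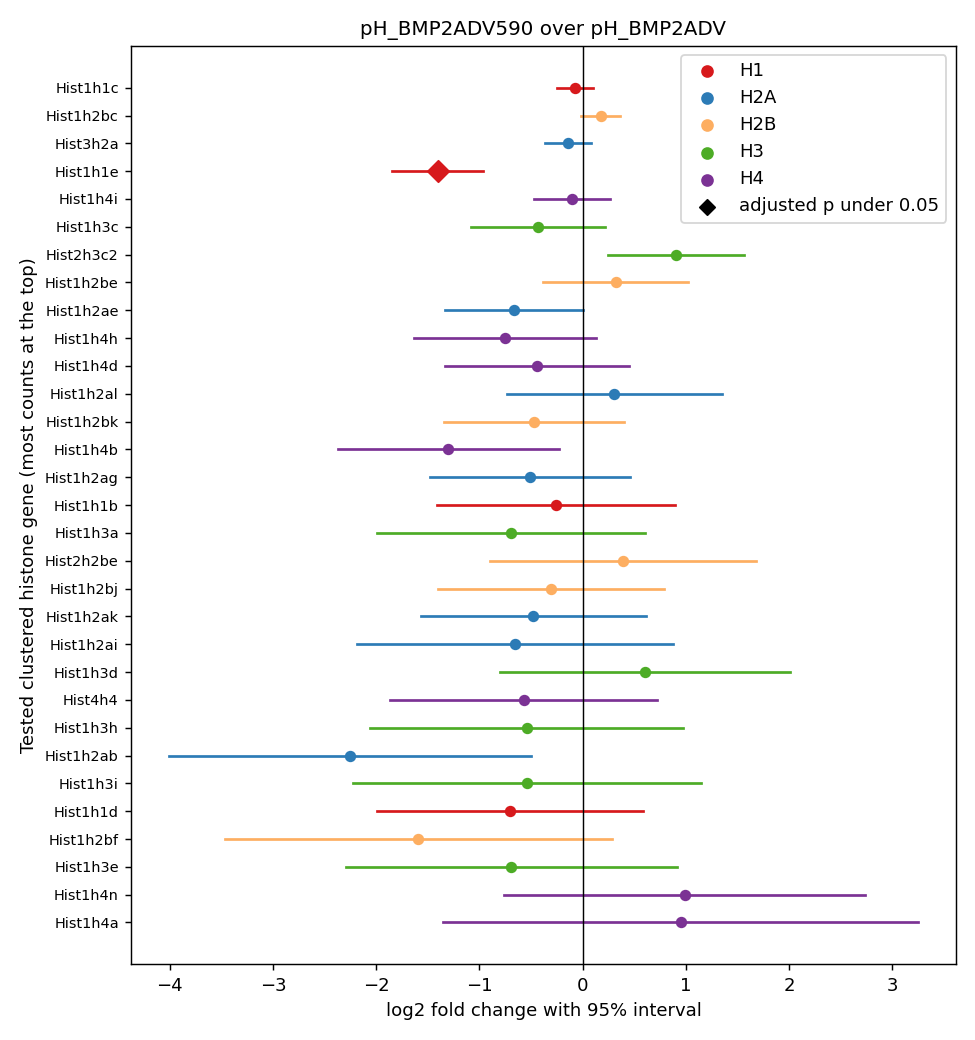
log2 fold change of pH_BMP2ADV590 over pH_BMP2ADV with its 95% interval for the 31 tested clustered histone genes, in order of counts with the most at the top, coloured by class. The diamond, Hist1h1e at -1.40, is the one call; 23 points lie below 0 and most intervals cross it.

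In the comparisons of the other hybrid vectors with pH_BMP2ADV no member was called: 0 of 31 in pH_BMP2ADV20a, where 0.476% of all genes were called, and 0 of 31 in pH_BMP2ADV148b, where 0.249% were, by edgeR. At an unadjusted p under 0.05 there was 1 member in pH_BMP2ADV20a (Hist1h4h), where 9.87% of all genes were, and 2 in pH_BMP2ADV148b (Hist1h1c and Hist1h1e), where 8.43% were. DESeq2 called 0 members in both, where it called 127 and 82 genes in all. The median log2 fold change of the members was -0.08 in pH_BMP2ADV20a and 0.05 in pH_BMP2ADV148b. Between pH_BMP2ADV20a and pH_BMP2ADV148b no member was called by edgeR, where 0.559% of all genes were called. At an unadjusted p under 0.05 there were 3, where 7.79% of all genes were. DESeq2 called 102 genes in all and 1 member, Hist1h1c, for which edgeR gave 0.32 (SE 0.084, adjusted p = 0.1075).

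Genes around the histone genes gave these values. Of 24 genes of histone mRNA transcription and 3' end processing, edgeR called 0 in pH_BMP2ADV590 against pH_BMP2ADV, where it called 8.26% of all genes. At an unadjusted p under 0.05 there were 2. The share of all genes under that limit is not given here for this comparison, and 8.26% is the share by adjusted p. Slbp, whose protein binds the stem-loop, was at 15.5, 13.4 and 12.9 CPM in pH_BMP2ADV590 and 13.8, 14.7 and 17.7 CPM in pH_BMP2ADV (log2 fold change -0.14, SE 0.159, adjusted p = 0.7001). Npat, a coactivator of histone gene transcription, gave -0.07 (SE 0.135, adjusted p = 0.8255). Replication-independent variants are not confined to S phase, and their mRNA is mostly polyadenylated. Of 11 tested, 1 was called in pH_BMP2ADV590, or 9.09%, where 8.26% of all genes were called. This was Cenpa, the H3 variant of centromeres, which was lower (-0.48, SE 0.103, adjusted p = 0.003995). H1f0, the H1 of resting cells, was at 217, 178 and 192 CPM in pH_BMP2ADV590 and 212, 193 and 190 CPM in pH_BMP2ADV, at -0.02 (SE 0.081, adjusted p = 0.9361). H2afx gave -0.20 (adjusted p = 0.2777), H2afz -0.17 (adjusted p = 0.3671), H3f3a 0.13 (adjusted p = 0.5257) and H3f3b -0.03 (adjusted p = 0.8692).

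Among 21 histone chaperones 2 were called lower in pH_BMP2ADV590 against pH_BMP2ADV, which is 9.52% of the list. Of all genes 8.26% were called in this comparison, and 3.89% were called lower. The 2 were Daxx, a chaperone of the variant H3.3, at -0.41 (SE 0.093, adjusted p = 0.005765) and Chaf1b, a subunit of the assembly factor CAF-1, at -0.57 (SE 0.161, adjusted p = 0.02769). The median of the list was -0.17. Among 30 S phase genes 8 were called lower, 26.7%, and none higher, where 3.89% of all genes were called lower. Gins2, part of the replicative helicase, gave -0.59 (SE 0.118, adjusted p = 0.002191), Pola1, a DNA polymerase, -0.57 (SE 0.125, adjusted p = 0.004572) and Ccna2, a cyclin, -0.39 (SE 0.101, adjusted p = 0.01593). Chaf1b stands in both lists. The median S phase gene was at -0.26. Without pH_BMP2ADV590 replicate 2, 6 of the 30 were called lower, Ccna2 no longer among them, and the median was -0.24, while Cenpa, Daxx and Chaf1b stayed called. Of all genes 6.89% were then called in either direction. Summed, S phase genes were at 1688 to 1781 CPM in pH_BMP2ADV590 and 1998 to 2184 CPM in pH_BMP2ADV, without overlap. In the comparisons of pH_BMP2ADV20a and of pH_BMP2ADV148b with pH_BMP2ADV, 0 genes of these lists were called by edgeR. Of all genes 0.476% and 0.249% were called there. At an unadjusted p under 0.05 the S phase list had 5 in pH_BMP2ADV20a and 2 in pH_BMP2ADV148b, and each other list had at most 2. Of all genes 9.87% and 8.43% were under that limit. Beside these S phase values stand Hist1h1e and the member median of -0.47 in the same libraries, and the part of S phase in them was not tested.

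**Figure D5:**
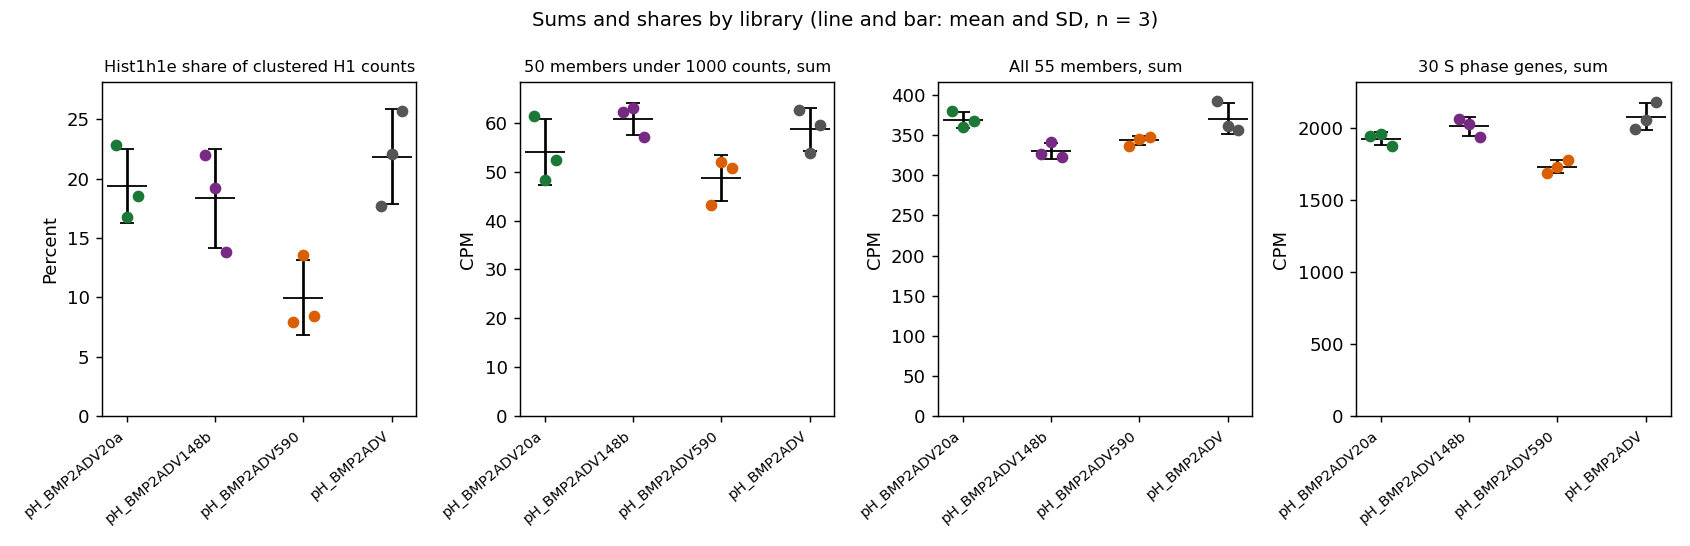
By library: the Hist1h1e share of clustered H1 counts (percent), the sum over the 50 members under 1000 counts, the sum over all 55 members and the sum over the 30 S phase genes (CPM), in pH_BMP2ADV20a, pH_BMP2ADV148b, pH_BMP2ADV590 and pH_BMP2ADV; lines and bars are the mean and SD of 3 libraries and axes start at 0. The share of Hist1h1e in pH_BMP2ADV590, 7.96% to 13.6%, lies below that in pH_BMP2ADV, 17.7% to 25.7%, and the S phase sum also lies lower there.

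Levels of members were compared with each other over the 12 libraries. Of the 22 members with a mean level of at least 1 CPM, the 231 pairs had a median Pearson r of 0.05, from -0.67 to 0.74, of log2(CPM + 1). The pairs share libraries and depth, and these values are a description. Nearest to Hist1h1e was Hist1h3a, at r = 0.64.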

How the data were processed

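RNA of 12 libraries of C3H/10T1/2 cells, 3 in each of 4 groups, was counted per gene. The deposited values are raw counts, 1 file per library, which the authors made with QuantSeq 3' mRNA FWD, FastQC 0.11.5, STAR 2.5.2a and HTSeq 0.6.0 on GRCm38, per the submitters' processing notes; the notes also name DESeq2 3.11. No source used here gives the annotation release, counting mode or strand, so overlapping and antisense genes cannot be told apart. Non-gene lines, 52.2% to 54.4% of records, were left out. Libraries were made from 100 ng of RNA with 16 cycles of amplification, and reads carry no molecular tags.

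Gene symbols, transcripts and sequences are from GENCODE M21 and RefSeq, both GRCm38. One mean per group was fitted to all 12 libraries in edgeR 4.0.16 (R 4.3.3, TMM, filterByExpr, quasi-likelihood F-test), adjusted by Benjamini-Hochberg over 13229 genes and called at 0.05. Fold changes are the first group over the second. Alternatives were DESeq2 1.42.0, limma-voom 3.58.1, DESeq2 size factors, other filters, the compared groups alone, a replicate block, no Gm42418, and each library left out. Member, class and list values without pH_BMP2ADV590 replicate 2 were added after the data were seen. Sums and shares have no test. Intervals are 95% intervals of the fit, and the limit of 3 for a count of 0 covers counting error only. Replicates of a group differed by more than sampling noise (chi-square per degree of freedom 6.38 to 29.4).

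The members and lists were chosen with earlier results of these data known. The text names members that were called, the 8 with the highest mean CPM, for each hybrid vector the 4 uncalled with the smallest p, those next to the minimum of 10, up to 3 called genes of each other list, and Slbp, Npat, H1f0, H2afx, H2afz, H3f3a and H3f3b. Others named were chosen after their values were seen.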

Additional observations from a re-analysis of the deposited data

How the results depend on the processing

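Hist1h1e stayed lower and called in pH_BMP2ADV590 against pH_BMP2ADV (log2 fold change -1.68 to -1.27) and against pH_BMP2ADV20a (-1.51 to -1.07) in all 20 alternatives. No direction reversed. With at least 1 count as the filter, 1 member was called in pH_BMP2ADV148b against pH_BMP2ADV (Hist1h1e) and 2 in pH_BMP2ADV590 (Hist1h1e and Hist2h3c2). Calls over all genes then went from 33 to 126 in pH_BMP2ADV148b and from 1093 to 1251 in pH_BMP2ADV590. DESeq2 called 1 in pH_BMP2ADV20a against pH_BMP2ADV148b (Hist1h1c), where it called 102 genes in all and edgeR 74. For any difference it called 3 members (Hist1h1c, Hist1h1e and Hist1h2bc). How many of all genes it called for any difference was not counted, so this 3 has no share beside it. In pH_BMP2ADV590 against pH_BMP2ADV148b, limma-voom called 1 and the fit to those groups alone 0. Over all genes these called 547 and 400, and the main fit called 586.

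Leaving out 1 library gave 1 to 2 members for pH_BMP2ADV590 against pH_BMP2ADV, 1 to 2 against pH_BMP2ADV20a, 0 to 2 against pH_BMP2ADV148b and 1 to 3 for any difference. Calls over all genes for pH_BMP2ADV590 also moved. They ran from 565 to 1115 against pH_BMP2ADV, 64 to 489 against pH_BMP2ADV20a and 241 to 656 against pH_BMP2ADV148b. In pH_BMP2ADV590 against pH_BMP2ADV the second member was Hist1h4b without pH_BMP2ADV replicate 1, Hist2h3c2 without pH_BMP2ADV148b replicate 1 and Hist1h3c without pH_BMP2ADV590 replicate 2. Over all genes 972, 1115 and 935 were called in those fits. Leaving out pH_BMP2ADV590 replicate 2 also gave 2 against pH_BMP2ADV20a (Hist1h1e and Hist1h3c) and 3 for any difference (Hist1h1c, Hist1h1e and Hist1h3c). Over all genes 489 were then called against pH_BMP2ADV20a. Calls over all genes for any difference were not counted with a library left out. Against pH_BMP2ADV148b the count of members was 0 without pH_BMP2ADV148b replicate 1 or 2 or pH_BMP2ADV590 replicate 3, where 241, 353 and 383 of all genes were called. Causes of these changes were not tested.

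The replicate block gave 1 member in pH_BMP2ADV590 against pH_BMP2ADV148b (Hist1h1e at adjusted p = 0.03983) and changed no other count of members. Over all genes it called 460 in that comparison. Same-numbered libraries did not deviate together (r from -0.11 to 0.07, none above 0.1 in 18 pairs). The labels give only a number, and with 3 libraries per group these r values cannot show whether same-numbered libraries were handled together.

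Without Hist1h1c the sum over members was 252 CPM in pH_BMP2ADV20a, 237 CPM in pH_BMP2ADV148b, 235 CPM in pH_BMP2ADV590 and 256 CPM in pH_BMP2ADV. The shares of H1, H2A, H2B, H3 and H4 were then 12.5%, 23.3%, 48.7%, 7.23% and 8.39% in pH_BMP2ADV20a, 10.6%, 26.03%, 45.5%, 7.57% and 10.3% in pH_BMP2ADV148b, 6.17%, 22.6%, 56.3%, 6.72% and 8.28% in pH_BMP2ADV590, and 13.9%, 24.4%, 46.4%, 5.71% and 9.60% in pH_BMP2ADV. Depth limits the 24 members below the filter, whose sum was 6.28 to 10.1 CPM in pH_BMP2ADV20a, 7.0002 to 11.6 CPM in pH_BMP2ADV148b, 6.99 to 8.61 CPM in pH_BMP2ADV590 and 9.45 to 11.6 CPM in pH_BMP2ADV.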
